A study of Mus musculus with 60 samples.

Results

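Calf muscles of Largemyd mice, labelled as a dystroglycanopathy model, were compared directly with those of Dmdmdx mice, which lack dystrophin, at 6 months of age. The comparison used 10 of the 60 arrays in the series, 5 Largemyd mice against 5 Dmdmdx mice, chosen by the lineage and age given in the labels. The whole series held 4 lineages (C57Bl/6 as normal control, Largemyd, Dmdmdx, and mice carrying both mutations, here called double mutants) at 21 days, 3 months and 6 months, with 5 mice each. All mice were labelled male and untreated, whole calf muscles were frozen and powdered, and total RNA was hybridised to Affymetrix Mouse Gene 1.0 ST arrays without technical replicates. Litter, housing and the strain background of the mutant lines were not given in the sources used here. The series title names the purpose as finding what sets Largemyd and double mutant muscle apart from Dmdmdx muscle.

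Dystrophin sits under the muscle fibre membrane and joins the actin cytoskeleton to dystroglycan, which in turn binds laminin in the basement membrane. Both mutations break this link, at different ends. In Dmdmdx mice a stop codon removes dystrophin from the membrane, and muscle passes through cycles of fibre death and regeneration. In Largemyd mice the sugar chain of alpha-dystroglycan that holds laminin is not completed, so dystroglycan and dystrophin are present but the outer bond is lost.

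Values below are log2 expression values per array, listed for replicates 1 to 5. A difference is the mean of the Largemyd arrays minus the mean of the Dmdmdx arrays, so that positive values are higher in Largemyd, and is given ± its standard error from a limma fit over all 60 arrays. A gene was called at an adjusted p under 0.05 (Benjamini-Hochberg over 19938 genes). Replicate numbers follow accession order and pair no mice. Mean log2 values of the arrays at 6 months lay between 7.33 and 7.37.

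Several of the 10 arrays stood apart in ways that the labels do not give. Largemyd replicates 2, 3 and 4 had Xist, the RNA of the inactive X chromosome, between 11.28 and 11.84, and Dmdmdx replicate 4 had 11.1, although all mice were labelled male. Over the whole series 11 of the 60 arrays had high Xist, at 10.58 or more, and in the rest it was at most 5.85. High Xist was found in 4 of the 5 C57Bl/6 arrays and in 0 of the 5 double mutant arrays at 6 months. Markers of lymph node, as a mean over 18 genes, were at 8.27, 9.78, 7.15, 8.7 and 8.11 in Largemyd and between 6.86 and 7.07 in Dmdmdx. They lay over 1 log2 unit above the median of their age in 4 of 5 Largemyd arrays and in 0 of 5 Dmdmdx arrays. Markers of marrow and neutrophils were highest in Dmdmdx replicate 5, at 9.35, against 6.63 to 8.07 in the other 9 arrays. Fast fibre markers, the defining genes of this muscle, were at 12.42 or more in all 10 arrays. The part of these arrays in the results was not tested. With the high Xist arrays removed, 2 Largemyd and 4 Dmdmdx arrays remain at 6 months, and calls in that set are given beside the main groups of genes.

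Of 19938 genes, 2843 (14.3%) were called, 1209 higher in Largemyd (6.06%) and 1634 lower (8.2%). With the median of each array subtracted, the split was 798 higher and 2180 lower. A difference of at least 2-fold was found for 141 called genes, 100 higher and 41 lower. In 2097 genes (10.5%) the 5 Largemyd arrays did not overlap the 5 Dmdmdx arrays, and 1609 genes (8.07%) were both called and free of overlap. Leaving out every array with high Xist gave 490 calls, of which 454 were among the 2843. With all arrays kept and high Xist as a covariate, 2384 genes were called, of which 2249 were among the 2843. Leaving out every array with lymph node markers over 1 log2 unit above its age gave 1003 calls, of which 834 were shared, but left 1 Largemyd array, whose spread had to be taken from the other groups. Without Largemyd replicate 2 the count was 1677.

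Adipocyte markers were higher in Largemyd, genes of excitation, fast fibres and glycolysis were lower, and lymphoid genes were high in some Largemyd mice. Promoters are shown here for 3 of the 24 largest differences that were free of overlap, a rise and 2 falls that are described in detail below: Fasn, which makes fatty acids, Mstn, which restrains muscle growth, and Phkg1, which starts glycogen breakdown. The sequences are RefSeq promoters of build GRCm38.p6, 250 bases before to 50 bases after the gene's start, written 5′ to 3′ along the gene's strand, with motif matches on either strand in capitals. Fasn lies at chr11:120824498-120824797 on the minus strand, Mstn at chr1:53061390-53061689 on the plus strand and Phkg1 at chr5:129879039-129879338 on the minus strand.
Fasn: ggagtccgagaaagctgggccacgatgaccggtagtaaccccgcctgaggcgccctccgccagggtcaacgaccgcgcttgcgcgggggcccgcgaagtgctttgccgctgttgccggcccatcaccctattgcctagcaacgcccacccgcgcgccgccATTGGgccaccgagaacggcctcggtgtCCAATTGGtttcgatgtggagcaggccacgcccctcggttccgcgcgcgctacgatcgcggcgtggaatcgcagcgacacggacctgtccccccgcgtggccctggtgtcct
Mstn: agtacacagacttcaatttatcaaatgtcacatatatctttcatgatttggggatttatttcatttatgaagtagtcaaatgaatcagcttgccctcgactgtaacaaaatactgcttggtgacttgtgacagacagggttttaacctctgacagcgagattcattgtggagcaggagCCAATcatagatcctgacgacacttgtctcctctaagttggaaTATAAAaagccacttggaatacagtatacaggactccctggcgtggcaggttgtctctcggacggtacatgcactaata
Phkg1: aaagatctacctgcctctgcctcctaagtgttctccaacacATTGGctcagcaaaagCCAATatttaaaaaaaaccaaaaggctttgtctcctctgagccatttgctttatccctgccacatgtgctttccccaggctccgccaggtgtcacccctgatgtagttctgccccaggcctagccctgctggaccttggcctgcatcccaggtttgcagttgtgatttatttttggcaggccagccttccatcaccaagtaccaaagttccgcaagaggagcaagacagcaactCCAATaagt
The capitals mark the CCAAT box (CCAAT) in all 3 and, in Mstn, also the TATA box (TATAAA). Of the 12 largest falls, 11 had a promoter in the table and 7 of those (63.6%) held a CCAAT box, as did 2 of the 7 promoters found for the 12 largest rises. Among 15614 promoters of tested genes, 38.2% held CCAAT, 12.1% TATAAA, 49.9% the GC box GGGCGG, 3.56% the MEF2 element and 1.16% the sterol regulatory element TCACNCCAC. Motifs were counted on both strands, and a match describes the letters of this window and no binding. The sterol regulatory element was in 0 of the 7 promoters of the rises.

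Fat genes gave the most uniform difference: all 14 measured adipocyte markers were called higher in Largemyd, with a median of 1.5 against 0.04 for all genes. In whole muscle RNA, more cells of a type and more RNA per cell cannot be told apart. Retn, the adipocyte hormone resistin, was at 12.09, 12.64, 12.51, 12.07 and 11.49 in Largemyd and 8.94, 10.25, 10.27, 10.84 and 9.93 in Dmdmdx, a difference of 2.11 ± 0.42 (adjusted p = 0.00033). Every Largemyd array lay above every Dmdmdx array, and Dmdmdx replicate 1 was lowest. Pck1, an enzyme on the way to the glycerol phosphate of triglycerides in fat cells, was at 10.86, 11.05, 10.44, 9.9 and 9.62 in Largemyd and 7.92, 8.55, 8.75, 8.11 and 8.38 in Dmdmdx (2.03 ± 0.41, adjusted p = 0.00031). The 2 sets were again apart, with Largemyd replicate 5 nearest to Dmdmdx. Thrsp, which promotes lipid synthesis, differed by 1.72 ± 0.25 (adjusted p = 4.2e-06), and Plin1, the coat protein of fat droplets, by 1.7 ± 0.32 (adjusted p = 0.00016).

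Among the other adipocyte markers, Cidec (1.61) and Adipoq (1.60), a droplet protein and the hormone adiponectin, were near Plin1. Slc36a2, an amino acid transporter of fat cells, differed by 1.52 and the hormone leptin (Lep) by 1.48. The lipase gene Lipe differed by 1.22, and the regulators of fat cell identity Pparg and Cebpa by 0.93 each. Fabp4, Lpl and Plin4 showed the smallest differences, between 0.63 and 0.65. In 10 of the 14 genes the arrays did not overlap, against 10.5% of all genes. The mean over the 14 genes was 10.96, 11.3, 11.21, 10.46 and 10.21 in Largemyd and 9.0, 9.64, 9.78, 9.52 and 9.48 in Dmdmdx, and the highest 3 Largemyd arrays included 2 with high Xist. With high Xist as a covariate all 14 were called, and without Largemyd replicates 2 and 4 and Dmdmdx replicate 5 the number was 12. Without the arrays with high Xist 3 were called, and the median was 1.15.

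Fasn and Elovl6, both of fatty acid synthesis, were among the 12 largest rises. Fasn, fatty acid synthase, was at 12.56, 12.69, 11.82, 12.12 and 11.01 in Largemyd and 8.99, 9.53, 9.33, 10.17 and 8.99 in Dmdmdx. The lowest Largemyd array, replicate 5, was above the highest Dmdmdx array, replicate 4. The difference was 2.64 ± 0.31 (adjusted p = 6.1e-08), a 6.23-fold higher level. Elovl6, which lengthens the fatty acids that Fasn makes, was at 9.88, 11.27, 9.82, 10.36 and 8.91 in Largemyd and between 7.98 and 8.27 in Dmdmdx, a difference of 1.94 ± 0.29 (adjusted p = 5.6e-06). Largemyd replicate 2 was highest and replicate 5 lowest, as for Fasn. Orm1, an acute phase plasma protein also made by fat, was at 9.56, 10.31, 10.03, 9.48 and 8.24 in Largemyd and 6.81, 7.19, 7.36, 7.81 and 7.33 in Dmdmdx (2.22 ± 0.43, adjusted p = 0.00023). Cdo1, which oxidises cysteine, was at 10.64, 10.86, 10.74, 9.97 and 9.22 in Largemyd and 7.38, 8.34, 8.26, 9.17 and 8.13 in Dmdmdx (2.03 ± 0.40, adjusted p = 0.00026). In both genes Largemyd replicate 5 came closest to the Dmdmdx arrays without reaching them. Fasn and Elovl6 were still called without the arrays with high Xist, while the calls of Orm1, Retn, Pck1 and Cdo1 ended there.

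**Figure D1:**
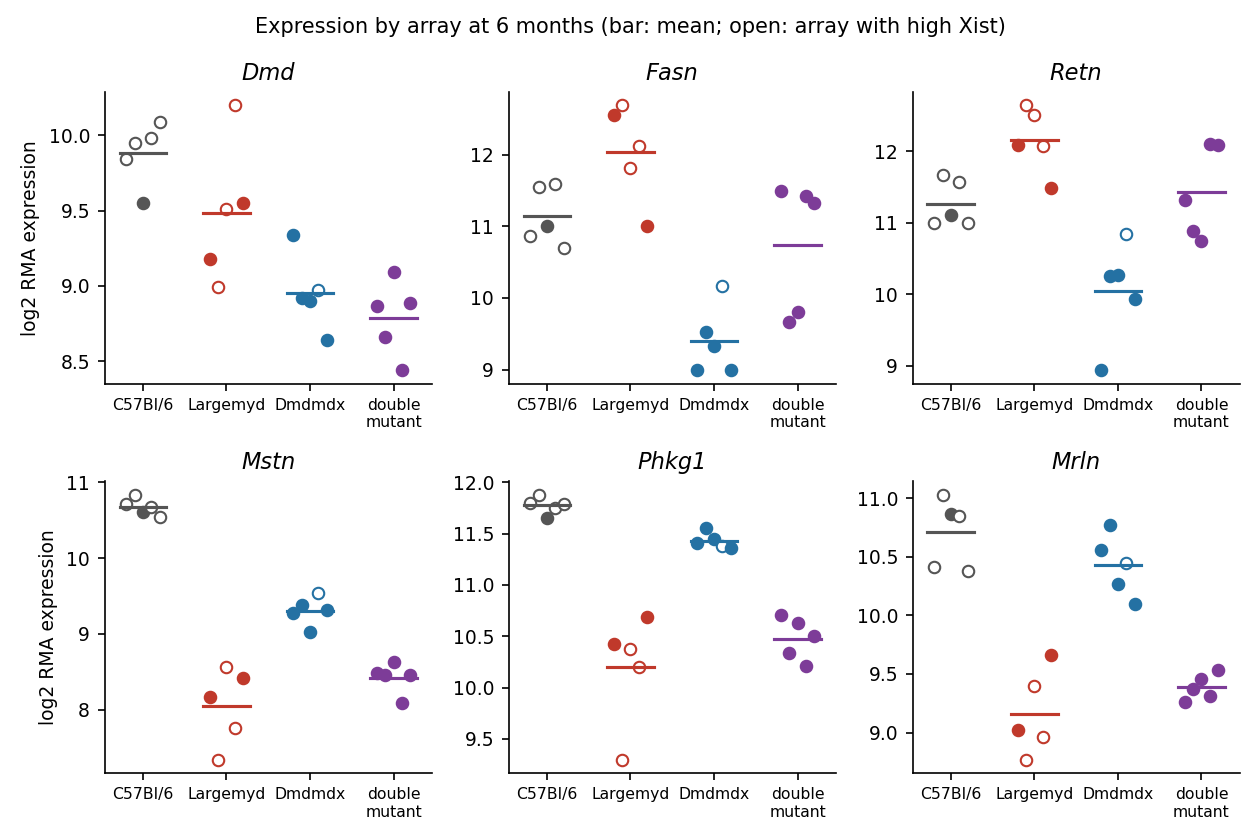
Log2 expression values of Dmd, Fasn, Retn, Mstn, Phkg1 and Mrln in each array of the 4 lineages at 6 months; a point is a mouse, a bar the mean of 5, and open points are arrays with high Xist. Fasn lies between 11.01 and 12.69 in Largemyd and between 8.99 and 10.17 in Dmdmdx, while Phkg1 is at most 10.69 in Largemyd and at least 11.36 in Dmdmdx.

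The 12 largest falls included Phkg1, Mrln and Mstn, which muscle fibres express. Phkg1, the catalytic subunit of muscle phosphorylase kinase, was at 10.42, 9.3, 10.38, 10.2 and 10.69 in Largemyd and 11.41, 11.55, 11.45, 11.38 and 11.36 in Dmdmdx. The Dmdmdx arrays lay within a narrow band above all Largemyd arrays, of which replicate 2 was lowest. The difference was -1.23 ± 0.22 (adjusted p = 8.8e-05), 2.35-fold lower. Mrln, the micropeptide myoregulin that restrains the calcium pump of the sarcoplasmic reticulum, was at 9.02, 8.77, 9.4, 8.96 and 9.66 in Largemyd and 10.56, 10.77, 10.27, 10.45 and 10.1 in Dmdmdx (-1.27 ± 0.24, adjusted p = 0.00019). Mstn, which encodes myostatin, was at 8.16, 7.34, 8.56, 7.75 and 8.42 in Largemyd and 9.27, 9.38, 9.03, 9.54 and 9.31 in Dmdmdx (-1.26 ± 0.30, adjusted p = 0.0019). For both genes the groups did not overlap, and Largemyd replicate 2 was lowest.

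Nt5c1a, a nucleotidase that breaks down AMP in muscle, was at 7.34, 6.74, 7.24, 6.88 and 7.96 in Largemyd and 8.77, 8.77, 8.72, 8.51 and 8.72 in Dmdmdx (-1.47 ± 0.20, adjusted p = 6e-07). Plcd4, a phospholipase C, was at 8.76, 7.71, 8.73, 8.16 and 9.3 in Largemyd and 10.32, 10.36, 10.21, 10.1 and 10.73 in Dmdmdx (-1.81 ± 0.35, adjusted p = 0.00024). In both, Largemyd replicates 2 and 4, the arrays with the highest lymph node markers, were lowest. Chac1, which degrades glutathione and is induced by the stress response to missing amino acids, was at 8.52, 8.26, 8.34, 8.26 and 8.64 in Largemyd and 10.16, 9.95, 10.71, 9.61 and 10.49 in Dmdmdx (-1.78 ± 0.37, adjusted p = 0.00047). Its Largemyd arrays were close together, and all lay below the Dmdmdx arrays. Riiad1 was at 6.41, 6.36, 6.47, 6.91 and 6.79 in Largemyd and 7.86, 7.94, 7.97, 7.72 and 7.77 in Dmdmdx (-1.26 ± 0.18, adjusted p = 2.5e-06). Nt5c1a, Riiad1 and Mrln were still called without the arrays with high Xist, and without Largemyd replicates 2 and 4 and Dmdmdx replicate 5. The calls of Phkg1, Chac1 and Lrtm1 ended without the arrays with high Xist. The calls of Mstn, Plcd4, Stxbp4 (-1.34), Mettl11b (-1.22), Plaat1 (-1.22) and Mylk4 (-1.20) ended there too, and also without Largemyd replicates 2 and 4 and Dmdmdx replicate 5. Mylk4, a myosin light chain kinase, was not called without Largemyd replicate 2 alone (-0.94, adjusted p = 0.14). Of the other falls, Lrtm1 differed by -1.17 ± 0.22 (adjusted p = 0.00014).

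Genes of excitation and calcium release were lower as a group: 16 of 27 were called lower and 1 higher, with a median of -0.50. Over all genes 8.2% were called lower and 6.06% higher. Jph1, junctophilin 1, which holds the T-tubule against the sarcoplasmic reticulum, was at 11.06, 10.23, 10.96, 11.0 and 11.43 in Largemyd and 11.91, 11.91, 11.8, 11.96 and 11.81 in Dmdmdx (-0.94 ± 0.17, adjusted p = 0.00012). The Dmdmdx arrays were nearly level, and the Largemyd arrays ranged over more than a log2 unit below them. Clcn1, the chloride channel that steadies the resting fibre, was at 8.86, 8.28, 9.2, 9.33 and 9.62 in Largemyd and 9.99, 10.06, 9.88, 9.84 and 9.81 in Dmdmdx (-0.86 ± 0.22, adjusted p = 0.0043). The voltage sensor Cacna1s (-0.84), the related junctophilin Jph2 (-0.80), the calcium release channel Ryr1 (-0.76), the calcium buffer Hrc (-0.75) and the coupling adaptor Stac3 (-0.66) were lower as well. The channel that refills calcium stores, Orai1 (-0.55), its sensor Stim1 (-0.32) and the fast pump Atp2a1 (-0.30) were called with smaller differences. Atp2a2, the pump of slow fibres and heart, was the member called higher (0.58 ± 0.19, adjusted p = 0.033), a call that ended in 5 of the 10 fits leaving out an array. Mrln, described above, is a member too. The mean over the 27 genes was 10.15, 9.83, 10.3, 10.25 and 10.45 in Largemyd and between 10.54 and 10.67 in Dmdmdx. In 16 of the 27 genes the arrays did not overlap, against 10.5% of all genes. The number called lower was 14 with high Xist as a covariate, 12 with lymph node and marrow markers as covariates, 8 without Largemyd replicates 2 and 4 and Dmdmdx replicate 5, and 6 without the arrays with high Xist. Without Largemyd replicate 2, 9 of the 27 were called in either direction.

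Genes of the fast fibre list were called lower in 13 of 18 cases and higher in 0, with a median of -0.37. Of all genes 8.2% were lower and 6.06% higher. The list shares Pfkm with the glycolysis genes, Atp2a1 with the excitation genes and Myl3 with the slow fibre genes, so these lists are not independent. Mybpc2, the fast myosin binding protein C, was at 12.3, 11.7, 12.25, 12.04 and 12.55 in Largemyd and 12.84, 13.0, 12.94, 13.04 and 12.99 in Dmdmdx (-0.80 ± 0.12, adjusted p = 7.1e-06). Actn3, the alpha-actinin of fast fibres, was at 12.96, 12.53, 12.98, 12.96 and 13.25 in Largemyd and 13.46, 13.6, 13.53, 13.54 and 13.43 in Dmdmdx (-0.58 ± 0.08, adjusted p = 3e-06). Neither gene overlapped between groups, and Largemyd replicate 2 was lowest and replicate 5 nearest to Dmdmdx in both. Myh4, the myosin of the fastest fibres, differed by -0.53, the Z-disc protein Myoz1 by -0.67, the troponins Tnnc2 and Tnnt3 by -0.47 and -0.32, and the light chain Mylpf by -0.48. The number called lower was 12 with either kind of covariate, 7 without the arrays with high Xist and between 11 and 14 when each array was left out in turn. Of 16 slow fibre genes 1 was called in each direction, with a median of 0.48. Their mean per array was 10.36 to 10.8 in Largemyd and 9.79 to 10.58 in Dmdmdx, so the groups overlapped. Myh7, the slow myosin, differed by 0.87 ± 0.42 and was not called (adjusted p = 0.17), and Myoz3, called lower, is a Z-disc protein of fast fibres. Its call ended in 7 of the 10 fits leaving out an array.

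**Figure D2:**
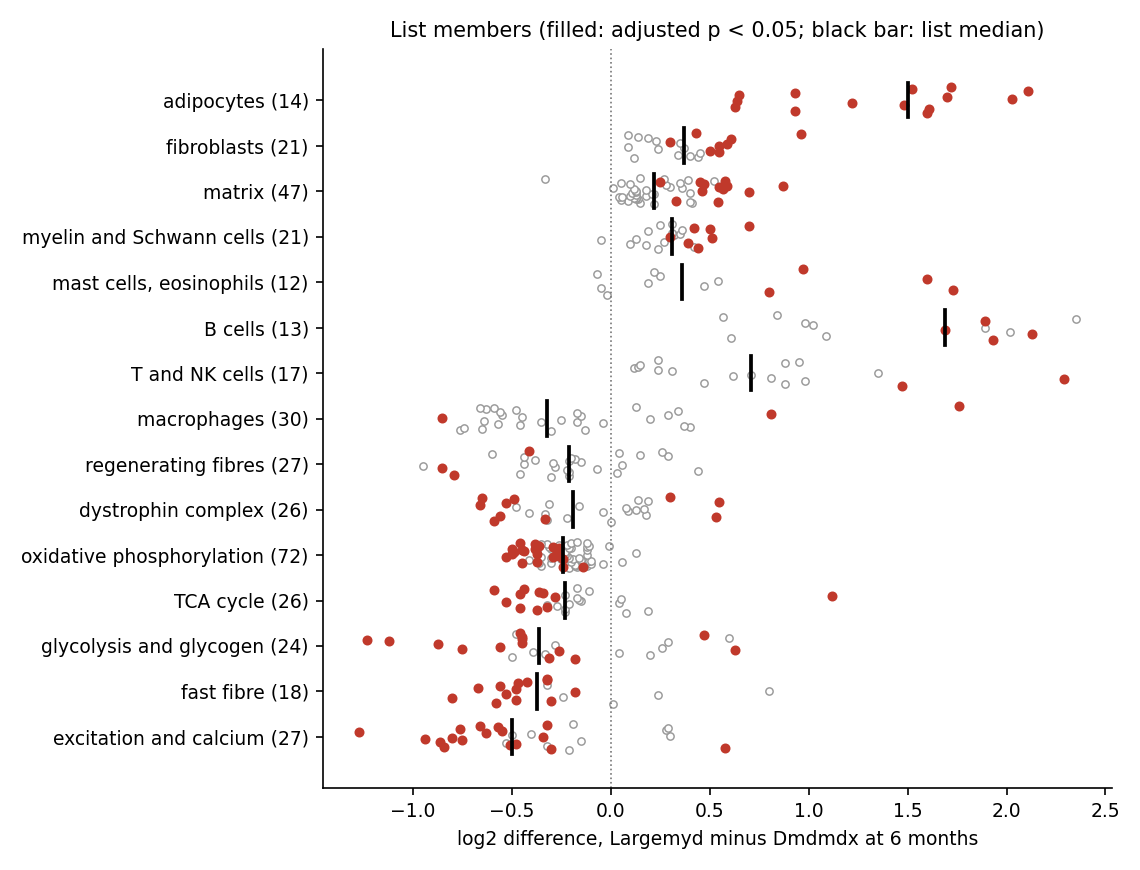
Log2 differences (Largemyd minus Dmdmdx at 6 months) of the members of 15 gene lists; each point is a gene, filled where the adjusted p was under 0.05, and the black bar is the list's median. All 14 adipocyte points are filled and lie right of 0, and 16 filled points of the 27 excitation and calcium genes lie left of 0.

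Genes of glycogen and glucose breakdown were lower as well. Of 24 genes, 12 were called lower and 2 higher, with a median of -0.36, against 8.2% and 6.06% of all genes. Phka1, the regulatory subunit that pairs with Phkg1 in muscle, was at 10.82, 9.74, 10.79, 10.89 and 11.49 in Largemyd and 11.89, 11.97, 11.82, 11.85 and 11.81 in Dmdmdx (-1.12 ± 0.22, adjusted p = 0.00022). Pgam2, the muscle phosphoglycerate mutase, was at 11.74, 11.06, 11.81, 11.99 and 12.23 in Largemyd and 12.64, 12.76, 12.74, 12.6 and 12.46 in Dmdmdx (-0.87 ± 0.20, adjusted p = 0.0013). Both genes were free of overlap, with Largemyd replicate 2 lowest. Pfkm, the muscle phosphofructokinase, differed by -0.56, Tpi1 by -0.46 and Pygm, the glycogen phosphorylase of muscle, by -0.45. The 2 members called higher, Ldhb (0.63) and the glucose transporter Slc2a1 (0.47), are the lactate dehydrogenase of oxidative tissue and a transporter of most non-muscle cells. Between 9 and 16 members were called in either direction when each array was left out, fewest without Largemyd replicate 2. Without the arrays with high Xist 0 were called, and with high Xist as a covariate 10 were lower and 2 higher.

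Mitochondrial genes were lower by less. Of 72 oxidative phosphorylation genes, 21 were called lower and 0 higher, with a median of -0.24, against 8.2% and 6.06% of all genes. The complex I subunits Ndufa12 (-0.53), Ndufa9 (-0.50), Ndufs5 (-0.50) and Ndufb6 (-0.49) led, and the call of Ndufa12 ended in 3 of the 10 fits leaving out an array. The mean over the 72 genes was 11.34, 11.07, 11.31, 11.33 and 11.51 in Largemyd and 11.59, 11.64, 11.58, 11.57 and 11.43 in Dmdmdx, and the groups overlapped through Dmdmdx replicate 5, the array with high marrow markers. Without Largemyd replicate 2, 8 were called, and without the arrays with high Xist 0 were. With high Xist as a covariate 13 were called lower. Of 26 tricarboxylic acid cycle genes and linked enzymes, 10 were called lower, led by Sucla2 (-0.59), Idh3a (-0.53) and Dld (-0.46). Without Largemyd replicate 2, 7 were called in either direction. Lower calls numbered 0 without the arrays with high Xist and 9 with high Xist as a covariate. The member called higher was Pcx, pyruvate carboxylase, which also feeds fat synthesis (1.12 ± 0.23, adjusted p = 0.00044). Pcx was at 10.86, 10.94, 10.54, 10.27 and 9.76 in Largemyd and 9.04, 9.43, 9.27, 9.81 and 9.2 in Dmdmdx, with replicate 5 of the former below replicate 4 of the latter. Of 32 genes of fatty acid uptake and oxidation 1 was called higher and 0 lower, with a median of -0.06.

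The genes of the broken link itself, Dmd, Utrn and Dag1, were each called, with small differences. All 3 calls ended without the arrays with high Xist. Dmd was at 9.18, 8.99, 9.51, 10.2 and 9.55 in Largemyd and 9.34, 8.92, 8.9, 8.97 and 8.64 in Dmdmdx. The groups overlapped, and Largemyd replicate 4 was highest. The difference was 0.53 ± 0.18 (adjusted p = 0.033). It was not called in 7 of the 10 fits leaving out an array, among them that without Largemyd replicate 4 (0.35, adjusted p = 0.18), nor with array medians subtracted (0.48, adjusted p = 0.072). The mdx allele stops translation and does not delete the gene, so this level is no check of the labels. Utrn, utrophin, which can stand in for dystrophin, was at 9.91, 9.85, 9.93, 10.22 and 9.55 in Largemyd and 9.58, 9.47, 9.66, 9.54 and 9.71 in Dmdmdx (0.30 ± 0.07, adjusted p = 0.0028). Largemyd replicate 5 lay within the Dmdmdx range. Dag1, dystroglycan, was at 11.07, 10.71, 11.16, 10.89 and 11.04 in Largemyd and 11.05, 11.29, 11.14, 11.43 and 11.57 in Dmdmdx (-0.33 ± 0.10, adjusted p = 0.025). Its groups overlapped, and it was not called in 4 of the 10 fits leaving out an array, among them that without Largemyd replicate 2 (-0.26, adjusted p = 0.14).

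Of the 26 genes of the dystrophin complex and its links, 7 were called lower and 3 higher, with a median of -0.19. Among all genes the shares were 8.2% lower and 6.06% higher. Without Largemyd replicate 2, 4 were called in either direction, and without the arrays with high Xist 1 was called in each. Sgca, alpha-sarcoglycan, was at 11.19, 10.54, 11.28, 10.8 and 11.58 in Largemyd and 11.72, 11.84, 11.73, 11.7 and 11.67 in Dmdmdx (-0.66 ± 0.17, adjusted p = 0.0059). Its groups were apart, but without Largemyd replicate 2 it missed the threshold (-0.52, adjusted p = 0.054). Sgce, epsilon-sarcoglycan, which replaces Sgca in cells other than striated muscle, was at 10.45, 10.28, 10.62, 10.09 and 10.06 in Largemyd and 9.45, 9.71, 9.73, 9.85 and 10.01 in Dmdmdx (0.55 ± 0.09, adjusted p = 2.3e-05). Thus the alpha form was lower and the epsilon form higher in Largemyd, in arrays that did not overlap for either. Synm, the intermediate filament protein synemin, differed by -0.65, and the dystrobrevin Dtna, delta-sarcoglycan Sgcd and sarcospan Sspn by -0.56, -0.53 and -0.49. Dtna missed the threshold without Largemyd replicate 2 (-0.42, adjusted p = 0.082). Of 14 enzymes that build the sugar chain of alpha-dystroglycan, 3 were called lower and 0 higher, with a median of -0.08. Without Largemyd replicate 2, 1 was called, and 0 without the arrays with high Xist. B3galnt2, which adds a sugar of the core chain, was at 9.08, 8.83, 9.24, 9.55 and 9.5 in Largemyd and 9.93, 9.89, 9.72, 9.88 and 9.53 in Dmdmdx (-0.55 ± 0.12, adjusted p = 0.0011). Its groups overlapped at Largemyd replicate 4 and Dmdmdx replicate 5. B4gat1 and Dpm1 differed by -0.30 and -0.34, and B4gat1 missed the threshold without Largemyd replicate 2 (-0.24, adjusted p = 0.088) and Dpm1 in 9 of the 10 fits leaving out an array.

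Of 47 structural matrix genes 12 were called higher and 0 lower, with a median of 0.22. Of 21 fibroblast and fibro-adipogenic progenitor markers 8 were higher and 0 lower, with a median of 0.37. Over all genes 6.06% were called higher and 8.2% lower, the shares to set beside each count of this paragraph. Without the arrays with high Xist 4 matrix and 3 fibroblast genes were called, the matrix count was 6 without Largemyd replicate 3, and the fibroblast count was 5 without Dmdmdx replicate 1. Thy1, a surface protein of fibroblasts and T cells, was at 9.38 or more in every Largemyd array and between 8.64 and 8.77 in Dmdmdx (0.96 ± 0.19, adjusted p = 0.0002), a call that ended without the arrays with high Xist. The microfibril gene Mfap4 differed by 0.87, with its call ended in 2 of the 10 fits leaving out an array, fibulin 1 (Fbln1) by 0.70 and thrombospondin 2 (Thbs2) by 0.58. Cartilage oligomeric protein, Comp, which is made by tendon as well, was at 9.7, 9.12, 10.1, 9.77 and 9.82 in Largemyd and 7.69, 8.6, 8.52, 8.6 and 8.69 in Dmdmdx (1.28 ± 0.23, adjusted p = 9.6e-05). The mean of the matrix list was 10.26, 10.11, 10.44, 10.18 and 10.14 in Largemyd and below each of these in all Dmdmdx arrays, the lowest at 9.88. Of 20 tendon, cartilage and bone genes 3 were called higher, and of 30 matrix proteases and inhibitors 6 were. Without Largemyd replicate 3 these counts were 1 and 2, and without the arrays with high Xist 1 and 3.

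Follistatin was higher and myostatin lower in Largemyd. Fst, follistatin, which binds and blocks activin and myostatin, was at 9.65, 9.53, 10.17, 9.48 and 9.72 in Largemyd and 8.49, 8.86, 8.77, 9.29 and 9.2 in Dmdmdx (0.79 ± 0.16, adjusted p = 0.00029). The groups were apart, with all Largemyd arrays above the Dmdmdx arrays. Of 39 genes of the TGF-beta, activin and BMP families 8 were called higher and 3 lower, against 6.06% and 8.2% of all genes. The higher side included the receptor Tgfbr2 (0.45) and the BMP target Id3 (0.57), and the lower the receptors Acvr2b (-0.35) and Bmpr1a (-0.36). Acvr2b is a receptor for myostatin. Without the arrays with high Xist 3 were called higher and 0 lower. Of 26 Wnt genes 7 were called higher and 1 lower, with a median of 0.25, and 4 and 1 without the arrays with high Xist. Sfrp1, a secreted Wnt inhibitor, was at 9.85, 9.97, 10.55, 9.24 and 9.78 in Largemyd and 9.03, 8.91, 8.82, 8.66 and 9.13 in Dmdmdx (0.97 ± 0.23, adjusted p = 0.0018). The inhibitors Sfrp5 (0.67) and Frzb (0.61) and the agonist Rspo3 (0.54) were also higher, while the inhibitors Sfrp2, Sfrp4, Dkk2, Dkk3 and Wif1 lay between 0.20 and 0.49 and were not called, and the receptor Fzd7 was lower (-0.55). Frzb was not called in 8 of the 10 fits leaving out an array, and Fzd7 not without Largemyd replicate 2 (-0.40, adjusted p = 0.055).

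Immune genes were uneven between the Largemyd mice. H2-Ea, an MHC class II chain that strains with the b haplotype, such as C57BL/6, do not express, was at 11.59, 12.36, 11.79, 11.36 and 6.07 in Largemyd and between 5.81 and 6.03 in Dmdmdx. Thus 4 Largemyd mice were high and replicate 5 was at the level of Dmdmdx, and the difference of 4.76 ± 0.89 (adjusted p = 0.00013) was the largest named. In the double mutants H2-Ea ranged from 5.73 to 11.14. Igkv10-96, an immunoglobulin light chain segment, was at 9.07, 12.57, 8.1, 9.5 and 9.3 in Largemyd and 5.9, 6.05, 5.75, 6.36 and 7.53 in Dmdmdx (3.39 ± 0.92, adjusted p = 0.008). Cd3g, a subunit of the T cell receptor complex, was at 9.02, 9.75, 6.57, 8.89 and 7.76 in Largemyd and 5.69, 5.99, 6.28, 6.14 and 6.45 in Dmdmdx (2.29 ± 0.76, adjusted p = 0.033). Both genes were highest in Largemyd replicate 2, the array with the highest mean of the lymph node markers, which include Cd3g itself. Of the Largemyd arrays replicate 3, with the lowest mean, was lowest for both. Without replicate 2 neither was called, Igkv10-96 at 2.67 (adjusted p = 0.068) and Cd3g at an adjusted p of 0.13. The call of Cd3g also ended without Largemyd replicate 1 or 4 or Dmdmdx replicate 1, 2 or 4. The calls of H2-Ea, Igkv10-96 and Cd3g all ended without the arrays with high Xist. Of 13 B cell markers 4 were called higher, of 17 T and NK cell markers 2 and of 18 lymph node markers 4, against 6.06% of all genes. Their medians were 1.69, 0.71 and 1.34, and without Largemyd replicate 2 the B cell and lymph node calls were 0, as were the T and NK cell calls without replicate 1. Without the arrays with high Xist 0 members of these 3 lists were called.

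Of 30 macrophage markers 2 were called higher and 1 lower, with a median of -0.32. Over all genes 6.06% were called higher and 8.2% lower, the shares to set beside each count of this paragraph. Vsig4, a complement receptor of resident macrophages, was at 9.34, 7.87, 8.85, 6.44 and 8.57 in Largemyd and 6.18, 6.27, 6.32, 6.38 and 7.13 in Dmdmdx (1.76 ± 0.32, adjusted p = 8.2e-05). Largemyd replicate 4 lay in the range of Dmdmdx. Lyve1, shared by resident macrophages and lymphatic vessels, was higher (0.81), and Gpnmb, a gene of lipid-laden macrophages, was lower (-0.85). Both calls ended in some fits leaving out an array, 2 for Lyve1 and 3 for Gpnmb. Of 12 mast cell and eosinophil markers 4 were called higher, and 2 without the arrays with high Xist. The mast cell protease Cpa3 was at 10.8, 11.99, 11.37, 9.46 and 10.45 in Largemyd and 7.83, 9.3, 9.19, 9.6 and 9.49 in Dmdmdx (1.73 ± 0.29, adjusted p = 3.5e-05). Largemyd replicate 4 was within the Dmdmdx range, and Dmdmdx replicate 1 was far below the rest. Complement genes were called higher in 6 of 17 cases and lower in 1, and without the arrays with high Xist in 1 and 0, including C6 (0.79), C2 (0.78) and C4b (0.74, not called in 5 of the 10 fits leaving out an array). Chemokines were higher in 6 of 25 and lower in 1, interferon-induced genes higher in 1 of 23, and MHC and antigen presentation genes higher in 2 of 13. Of these, 2 chemokines and 0 genes of the other 2 lists were called without the arrays with high Xist. Leaving out 1 array brought the calls in either direction to 3 for complement (Largemyd replicate 1), 3 for chemokines (Dmdmdx replicate 1), and 1 each for macrophages and for MHC and antigen presentation (Largemyd replicate 2). No neutrophil and marrow marker of 16 was called, and their mean in Dmdmdx replicate 5 was 9.35.

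**Figure D3:**
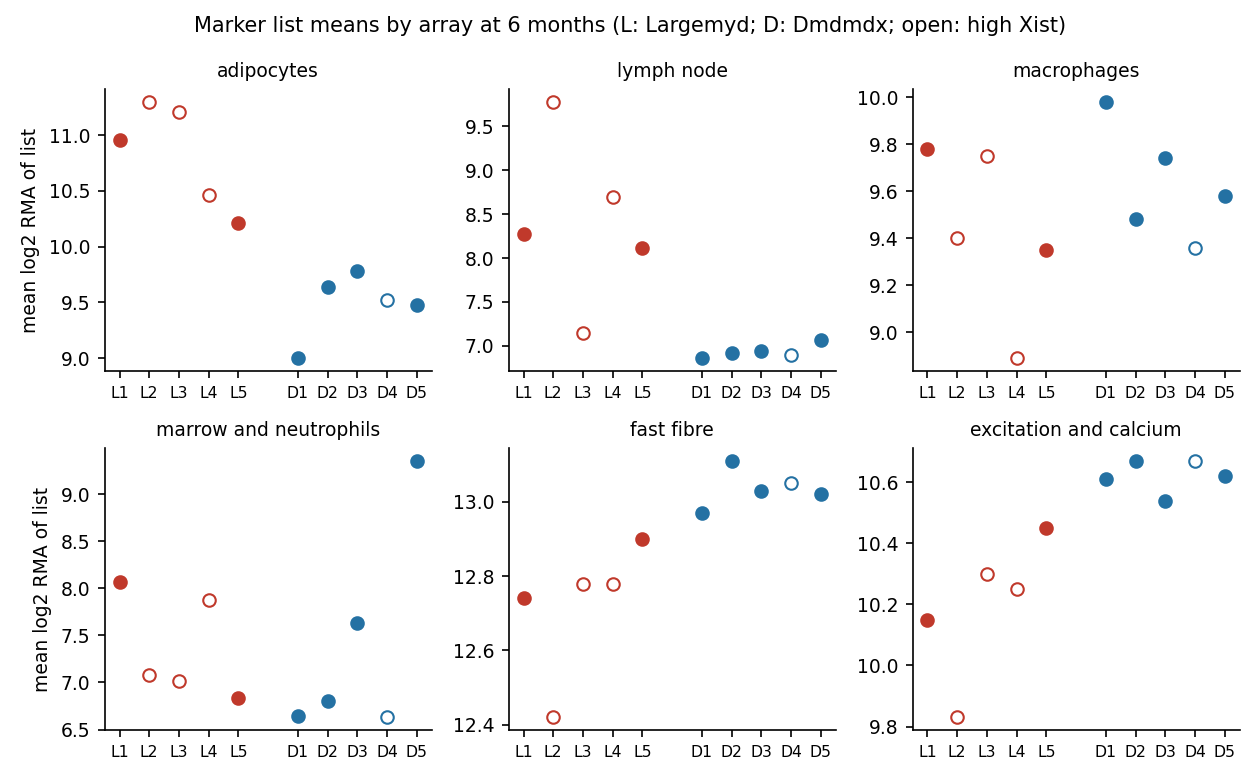
Mean log2 values of 6 gene lists in each of the 10 arrays, Largemyd replicates 1 to 5 (L1 to L5) and Dmdmdx replicates 1 to 5 (D1 to D5). Adipocyte means run from 10.21 to 11.3 in Largemyd against 9.0 to 9.78 in Dmdmdx, lymph node means are highest in L2 (9.78) and marrow means in D5 (9.35).

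Of 21 myelin and Schwann cell genes 7 were called higher and 0 lower, with a median of 0.31, against 6.06% and 8.2% of all genes. In 11 of the 21 the arrays did not overlap, against 10.5% of all genes. None was called once the arrays with high Xist were left out, and 7 were called higher with high Xist as a covariate. Scn7a, a sodium channel of Schwann cells, was at 10.98, 10.81, 11.04, 10.72 and 10.44 in Largemyd and 10.01, 10.13, 10.43, 9.71 and 10.23 in Dmdmdx (0.70 ± 0.15, adjusted p = 0.00077). Gldn, Pmp22 and Cldn19, of the node of Ranvier and of myelin, differed by 0.51, 0.50 and 0.44. Ache, the acetylcholinesterase of the junction, was at 9.13, 8.84, 9.41, 9.16 and 9.47 in Largemyd and 10.14, 10.31, 9.97, 9.98 and 10.16 in Dmdmdx (-0.91 ± 0.14, adjusted p = 5.2e-06). Neither Scn7a nor Ache overlapped between groups. Chrnb1, a subunit of the acetylcholine receptor, was lower as well (-0.81), and of 25 denervation and junction genes 3 were lower and 1 higher, a share near that of all genes. Of 27 developmental and regenerating fibre genes 3 were lower and 0 higher, and of 18 satellite cell genes the adhesion gene Cdh15 (-0.79) was lower. Klhl40, a sarcomere stabiliser, differed by -0.85 ± 0.18 (adjusted p = 0.00065). Of 31 cell cycle genes 1 was lower, Ccne2 (-0.84), and 1 higher, Pttg1. Pttg1, securin, was at 9.42, 9.05, 9.38, 9.47 and 9.28 in Largemyd and 8.0, 7.68, 7.85, 7.8 and 7.72 in Dmdmdx (1.51 ± 0.13, adjusted p = 1.6e-11), in bands that were narrow and more than a log2 unit apart.

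The same contrast was measured in other mice at 21 days and 3 months, and the change of the difference with age was tested in the same fit. Array means differed by age as if each age had been scaled alone, so differences and not levels were compared. Largemyd against Dmdmdx gave 1782 calls (8.94%) at 21 days and 845 (4.24%) at 3 months. The difference at 6 months departed from that at 21 days for 2043 genes (10.2%) and from that at 3 months for 2025 genes (10.2%). Fasn differed by 0.24 at 21 days and 0.02 at 3 months against 2.64 at 6 months, and both departures were called (adjusted p = 0.00051 and 0.00029). Elovl6 departed by 2.02 from 21 days and 1.97 from 3 months (adjusted p = 0.0015 and 0.0018). Of the 14 adipocyte markers, 11 had a higher difference at 6 months than at 21 days (5.27% of all genes) and 6 a higher one than at 3 months (2.47%). Their median difference was 0.00 at 21 days, 0.22 at 3 months and 1.5 at 6 months.

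Muscle genes had lower differences at 6 months than at 3 months. The median of the excitation and calcium genes was 0.00 at 21 days, 0.22 at 3 months and -0.50 at 6 months, and 19 of 27 had a lower difference at 6 months than at 3 months (7.69% of all genes), against 9 for 21 days (4.98%). For fast fibre genes the medians were 0.00, 0.13 and -0.37 with 12 and 8 of 18 lower, and for glycolysis 0.00, 0.15 and -0.36 with 13 and 5 of 24 lower. Oxidative phosphorylation genes had medians of 0.09, 0.21 and -0.24, with 33 of 72 lower against 3 months and 15 against 21 days. Among single genes, Mybpc2 departed by -1.08 from 3 months (adjusted p = 0.00018) and by -0.67 from 21 days (adjusted p = 0.0088). Jph1 departed by -1.22 from 3 months (adjusted p = 0.0012) and by -0.54 from 21 days (adjusted p = 0.16). Chac1 differed by 0.86 at 21 days, -1.07 at 3 months and -1.78 at 6 months, and departed from 21 days by -2.64 (adjusted p = 0.0011). The comparison with 3 months changed with the treatment of arrays that stood apart. Without the arrays with high Xist it gave 13 calls in place of 2025. With high Xist and the lymph node and marrow markers as covariates it gave 43. Without Dmdmdx replicate 5 at 3 months, with a lymph node mean of 9.65, it gave 1096. Leaving out arrays also leaves fewer mice, and the part of each in these counts was not tested. The comparison with 21 days gave 308 calls without the arrays with high Xist.

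**Figure D4:**
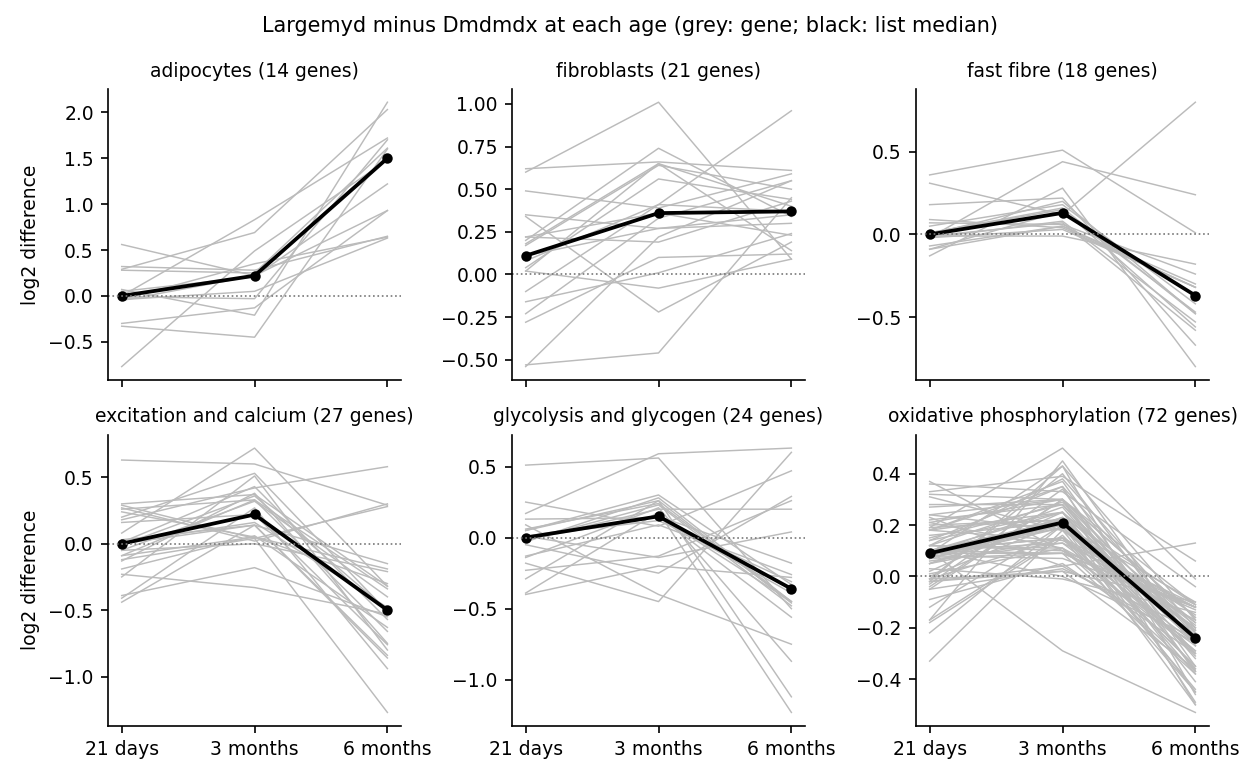
Log2 differences (Largemyd minus Dmdmdx) of the members of 6 gene lists at 21 days, 3 months and 6 months, 10 arrays per age. Grey lines are genes, and black points joined by a line are list medians. The adipocyte median goes from 0.00 and 0.22 to 1.5, and the excitation and calcium median from 0.00 and 0.22 to -0.50.

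Hal, H2-Ea and Pttg1 were called higher in Largemyd at all 3 ages. Hal, histidine ammonia-lyase, was at 10.52, 9.39, 9.93, 8.08 and 8.65 in Largemyd and 6.65, 6.63, 6.52, 6.58 and 6.49 in Dmdmdx at 6 months (2.74 ± 0.56, adjusted p = 0.00042). It differed by 2.38 at 21 days and 3.18 at 3 months. H2-Ea differed by 5.74 and 5.91 at these ages, and Pttg1 by 1.31 and 1.23. Departures from 6 months were not called for any of the 3 genes (adjusted p of 0.39 or more), which does not show equal differences. Dmd differed by 1.09 at 21 days and 1.08 at 3 months, both called, and its departures from 0.53 at 6 months were not called (adjusted p = 0.15 and 0.16). Snord53, a small nucleolar RNA, was at 11.55, 11.47, 11.22, 11.84 and 11.69 in Largemyd and 9.99, 9.71, 9.75, 8.84 and 9.18 in Dmdmdx at 6 months (2.06 ± 0.28, adjusted p = 7.4e-07). Its groups were well apart at 6 months, with differences of 0.12 at 21 days and -0.12 at 3 months, and both departures were called (adjusted p = 0.0014 and 0.00055).

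Both lineages were also set against the same 5 C57Bl/6 arrays of 6 months, so the values that follow share those controls and are given side by side. Against C57Bl/6, 6483 genes (32.5%) were called for Largemyd and 2763 (13.9%) for Dmdmdx. Of the 14 adipocyte markers, 10 were higher in Largemyd than in C57Bl/6 (15.4% of all genes) with a median of 0.87, and 4 were lower in Dmdmdx (6.74%) with a median of -0.51. Fasn was 0.90 above C57Bl/6 in Largemyd (adjusted p = 0.02) and 1.74 below it in Dmdmdx (-1.74, adjusted p = 4.2e-05). Elovl6 was at 0.38 in Largemyd (adjusted p = 0.38) and -1.56 in Dmdmdx (adjusted p = 9.1e-05), and Pck1 at 1.54 (adjusted p = 0.0021) and -0.49 (adjusted p = 0.49). Thus the fat difference between the mutants was made of a higher Largemyd and a lower Dmdmdx level in shares that differed by gene. The adipocyte mean per array was 9.84 to 10.28 in C57Bl/6.

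The muscle genes lay below C57Bl/6 mainly in Largemyd. Of the 27 excitation and calcium genes 19 were lower in Largemyd (17.1% of all genes) with a median of -0.49, and 3 were lower in Dmdmdx with a median of -0.13. Of 18 fast fibre genes 11 and 2 were lower, and of 72 oxidative phosphorylation genes 55 and 0. Phkg1 was at -1.58 in Largemyd and -0.34 in Dmdmdx, and Mrln at -1.54 and -0.27. Mstn was lower in both, by -2.63 in Largemyd (adjusted p = 6.9e-10) and -1.37 in Dmdmdx (adjusted p = 0.00062), from levels of 10.54 to 10.84 in C57Bl/6. Ache was at -0.45 in Largemyd (adjusted p = 0.0083) and 0.47 in Dmdmdx (adjusted p = 0.014), on opposite sides of C57Bl/6. Structural matrix genes were higher in both, 43 of 47 in Largemyd with a median of 0.76 and 29 of 47 in Dmdmdx (7.12%) with a median of 0.49. Macrophage markers were higher in both, 28 of 30 with a median of 1.44 and 27 of 30 with a median of 1.63. Pttg1 was at -0.54 and -2.04. High Xist was seen in 3 of 5 Largemyd, 1 of 5 Dmdmdx and 4 of 5 C57Bl/6 arrays, and its part in these differences was not tested.

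**Figure D5:**
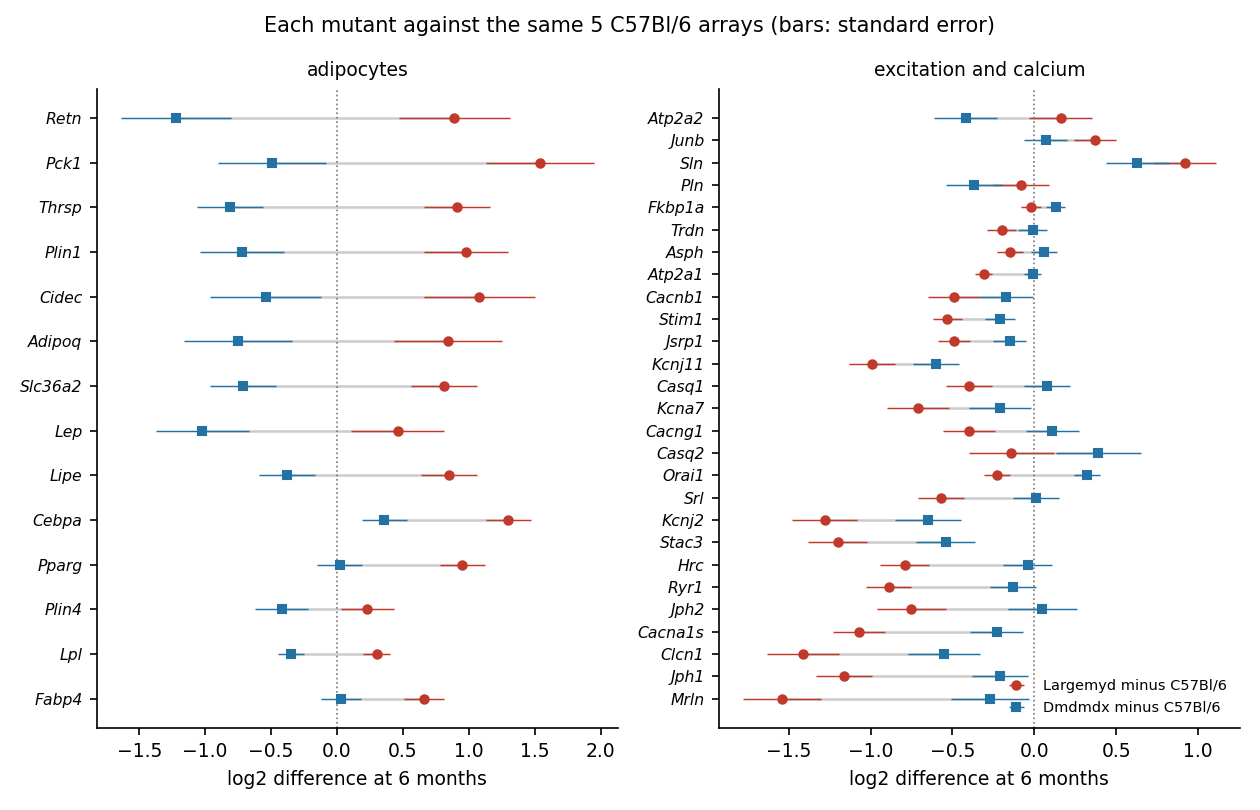
Log2 differences from the same 5 C57Bl/6 mice at 6 months for 14 adipocyte genes and 27 excitation and calcium genes, 1 row per gene, on a shared axis; circles are Largemyd minus C57Bl/6, squares Dmdmdx minus C57Bl/6, and bars are standard errors. Retn lies at 0.89 in Largemyd and -1.22 in Dmdmdx, and Jph1 at -1.16 and -0.21.

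The double mutants, which carry both mutations, were measured in 5 other mice of 6 months. They differed from Dmdmdx in 913 genes (4.58%) and from Largemyd in 268 (1.34%). The values of this paragraph share the Dmdmdx arrays with the direct comparison. Their adipocyte mean per array was 9.75 to 10.88, overlapping the ranges of both single mutants. Against Dmdmdx, Hal was higher by 3.02 (adjusted p = 0.00044), Fst by 0.83 (adjusted p = 0.00056), Sfrp1 by 1.19 (adjusted p = 0.00058) and Vsig4 by 2.68 (adjusted p = 1.6e-07). Phka1 was at -0.82 (adjusted p = 0.016), Jph1 at -0.61 (adjusted p = 0.029) and Mstn at -0.89 (adjusted p = 0.071). Pttg1 differed by 0.00 between the double mutants and Dmdmdx. Snord53 was lower in the double mutants than in Largemyd, by -1.57 (adjusted p = 0.001).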

How the data were processed

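The authors deposited log2 expression values made by RMA with Affymetrix Expression Console, per the submitters' processing notes (version not given in the sources used here). RMA corrects background, equalises array distributions and summarises probes, so a difference common to all genes is removed and small values are compressed. All 60 columns of values were used, and 0 were left out. Of 35556 probe sets, 21789 had a single gene symbol in the platform annotation, 1621 several and 12146 none; symbols were updated through Entrez identifiers for 21698. The probe set with the highest mean over all arrays stood for a gene, leaving 19938 genes. Groups came from the lineage and age in the labels, and replicate numbers from accession order.

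Means of the 12 groups were fitted with limma 3.58.1 in R 4.3.3 (lmFit and eBayes, 48 residual degrees of freedom), with Benjamini-Hochberg adjustment over all genes and a threshold of 0.05, for 10 comparisons. Differences are on the log2 scale. The fit was tested on simulated data for the 6-month comparison, with 200 genes changed in each of 10 runs over 19938 genes. It recovered 74.5% of changes of 0.5 log2 units, 96% of 1 and 99.7% of 2, and 4.96% of its calls were false. The simulated noise was normal, independent between genes and of equal spread in all arrays, with no high Xist or lymph node arrays. These rates describe the simulation and are not the rate of false calls in the real arrays. Tables and figures used Python 3.11.15, pandas 2.3.3 and matplotlib 3.10.9. The number of arrays limits the precision.

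Gene lists (43, with 938 of 1021 entries measured) and the comparison itself were chosen with earlier results of these data known. Genes named were the 12 largest differences per direction among called genes whose arrays did not overlap, without predicted genes, large multigene families and the sex genes, then Dmd, Utrn and Dag1, the 4 largest changes with age per direction, and up to 4 called members per list (2 where none was called). Further list members and the lipid enzymes of the closing section were chosen after their values were seen. Alternatives were other scalings, array weights, filters, probe set rules, covariates and reduced sets of arrays. A gene in the dystroglycan pathway is not reported here.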

Additional observations from a re-analysis of the deposited data

Results flagged for a closer look

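Among the gene values in the 2 groups of 5 arrays, a mouse stood far from the other 4 in the following cases. The test is one that chance passes for about 1 in 20 groups. Many genes were tested in each group, so cases of this kind arise by chance, and they do not by themselves set a mouse apart. In Largemyd, H2-Ea was at 6.07 in replicate 5 (group median 11.59), Ccl3 at 6.89 in replicate 4 (8.03) and Ccne2 at 6.26 in replicate 2 (6.95). In Dmdmdx replicate 1 the mast cell proteases Cpa3, Mcpt4 and Tpsb2 were at 7.83, 6.95 and 7.19, against medians of 9.3, 8.18 and 7.83, and the matrix genes Comp and Fbln1 at 7.69 and 8.6, against 8.6 and 9.17. In Dmdmdx replicate 4, the array with high Xist, the Y-linked gene Kdm5d was at 6.32 (8.37), H2-Ea at 6.03 (5.86), Nt5c1a at 8.51 (8.72) and Pfkfb3 at 10.11 (11.0). In Dmdmdx replicate 5, the array with high marrow markers, the red cell gene Slc4a1 was at 8.99 (7.42), Vsig4 at 7.13 (6.32), Mfap5 at 10.31 (10.62) and Thrsp at 8.13 (8.53). Cldn19 was at 7.81 in Dmdmdx replicate 2 (7.71).

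List means were flagged by the same test, with the same limit. The mean of the developing red cell markers was 7.95 in Dmdmdx replicate 5 (median 6.84), and that of mast cells and eosinophils 6.66 in Dmdmdx replicate 1 (7.26). The sex genes were at 6.57 in Dmdmdx replicate 4 (7.88) and the genes known to differ between male and female muscle at 8.37 there (8.82). In Largemyd the dystrophin complex was at 9.62 in replicate 2, the cell cycle at 7.88 in replicate 4 (7.64) and imprinted genes at 9.34 in replicate 3 (8.97).

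The difference between Largemyd and Dmdmdx at 6 months departed from that at 21 days for 2043 genes and from that at 3 months for 2025, by the test of the change itself. Against 21 days the largest named departures were immunoglobulin and B cell genes, Ms4a1 (4.69, adjusted p = 0.016), Igkv10-96 (4.61, adjusted p = 0.017), Igkv9-120 (4.14, adjusted p = 0.017) and H2-Ob (3.45, adjusted p = 0.011). On the lower side they were Chac1 (-2.64, adjusted p = 0.0011), the ubiquitin ligase Fbxo32 (-1.96, adjusted p = 0.027), the macrophage protease Mmp12 (-1.75, adjusted p = 0.017) and Rilpl1 (-1.63, adjusted p = 0.00011). Against 3 months they were Igkv10-96 (4.99, adjusted p = 0.0089), Igkv9-120 (3.74, adjusted p = 0.031), Jchain (3.4, adjusted p = 0.012) and Igha (3.28, adjusted p = 0.029). On the lower side they were Plcd4 (-1.83, adjusted p = 0.012), Mmp12 (-1.75, adjusted p = 0.016), Lrtm1 (-1.61, adjusted p = 0.00085) and Prkag3 (-1.56, adjusted p = 0.0022). Lymph node markers were high in some arrays at each age, with a Dmdmdx median of 8.42 at 21 days and a Dmdmdx maximum of 9.65 at 3 months, and their part in the immunoglobulin departures was not tested.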

How the results depend on the processing

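No paired analysis was possible because the replicate numbers come from accession order and pair no mice. Alternatives are other scalings, filters, covariates and sets of arrays; 4 of them, on high Xist and lymph node markers, were chosen after seeing the data. The number called at 6 months was 1153 without Largemyd replicates 2 and 4 and Dmdmdx replicate 5, 1003 without arrays with high lymph node markers (1 Largemyd array left), 490 without arrays with high Xist, 2 in the high Xist arrays alone (1 Dmdmdx array), and 1677 to 2966 when each array was left out, fewest without Largemyd replicate 2. The split of higher against lower calls moved from 42.5% higher to 26.8% with array medians subtracted. It was 49.6% higher with array weights, 52.7% with tissue covariates and 53.4% with the arrays of other tissue left out. Without Largemyd replicates 2 and 4 and Dmdmdx replicate 5 it was 62.4%. The share of higher calls was larger still in the fits that left 1 Largemyd or 1 Dmdmdx array, too few to settle a split. For the change from 21 days (2043) the counts were 3244 with array weights, 1095 with tissue covariates, 1021 with high Xist as well, 873, 371 and 308 without the 3 sets of arrays named first, 767 without arrays of other tissue, and 1140 to 2547 leaving out each array. For the change from 3 months (2025) they were 571 with only the arrays compared, 913 with high Xist as a covariate, 396 with tissue covariates, 43 with both, 604, 360 and 13 without the same 3 sets, 666 without arrays of other tissue, and 1096 to 2568. Signs turned for the change of Ms4a1 from 21 days without high lymph node arrays (-0.01) and for list medians that exceeded the spread of their arrays: imprinted genes 0.14, macrophages 0.05 and glycan enzymes 0.03 without those arrays; T and NK cells -0.04 and skin and mammary -0.01 under both covariate fits; B cells -0.01, lymph node -0.02, MHC -0.04 and the sex genes 0.04 with high Xist and tissue covariates, MHC -0.13 with tissue covariates; cell cycle 0.05 and the sex genes 0.13 in high Xist arrays alone. In 60 other cases a median within that spread turned, among them interferon-induced genes at 0.24 in high Xist arrays alone and atrophy 0.14 and denervation 0.10 without high lymph node arrays. Of the values of named genes under alternatives, 3405 kept direction and side of the threshold, 827 lost the call and 8 gained it. The cause of these changes was not tested.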

Other observations

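Some enzymes between citrate and stored fat were higher in Largemyd and others were not called, in a set picked after its values were seen. Acly, which splits citrate, differed by 1.12 ± 0.21 (adjusted p = 0.00011), Acaca, which makes malonyl-CoA for synthesis, by 1.72 ± 0.23 (adjusted p = 6.5e-07) and Scd1, which desaturates the product, by 1.35 ± 0.27 (adjusted p = 0.00037). Agpat2 (1.72, adjusted p = 3.2e-06), Dgat1 (0.94, adjusted p = 0.00019) and Dgat2 (1.77, adjusted p = 4.1e-09), which assemble triglycerides, were higher as well. Acacb, the acetyl-CoA carboxylase that restrains fatty acid oxidation in muscle, was at -0.27 ± 0.15 (adjusted p = 0.24), and Me1 at 0.06 (adjusted p = 0.85) and Gpam at -0.24 (adjusted p = 0.44) were not called. Ucp1, the defining gene of brown fat, was at 0.71 ± 0.30 (adjusted p = 0.11), with means of 6.58 in Largemyd and 5.87 in Dmdmdx. Of the 7 subunit genes of the energy sensor AMPK, also picked after their values were seen, Prkab2 (-1.14 ± 0.18, adjusted p = 9e-06), Prkag3 (-1.13 ± 0.24, adjusted p = 0.00064) and Prkaa2 (-0.92 ± 0.19, adjusted p = 0.0005) were lower, and Prkaa1 (0.12), Prkab1 (0.15), Prkag1 (-0.13) and Prkag2 (-0.07) were not called. The call of Prkag3 ended without the arrays with high Xist, and also without Largemyd replicates 2 and 4 and Dmdmdx replicate 5.

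Without the arrays with high Xist, at most 1 member was called in each of the lists that follow. With all arrays, 6.06% of all genes were called higher and 8.2% lower, the shares to set beside each count. Of 14 smooth muscle and pericyte genes 4 were called higher and 1 lower, with Tagln at 0.65 and Cnn1 at 0.63, and of 21 endothelial genes 3 were higher, with Eng at 0.38. Of 15 imprinted growth genes Nnat (1.72) and Sgce (0.55) were higher and Cdkn1c (-0.49) lower. Of 17 skin and mammary genes 5 were higher, with Csn3 at 1.45, a milk protein gene that was at 7.56 and 8.58 in Largemyd replicates 2 and 4. Of 29 genes of the amino acid and unfolded protein stress response 4 were higher and 3 lower. Of 24 atrophy genes 1 was higher (Fbxo21, 0.39), of 14 heat shock genes 1 lower (Hspd1, -0.27) and of 17 clock genes 2 lower, with Bhlhe40 at -0.66. Of 10 genes known to differ between male and female muscle 2 were lower, the Y-linked Kdm5d (-1.20) and Smox (-1.05), beside high Xist in 3 of 5 Largemyd and 1 of 5 Dmdmdx arrays, of 4 sex genes 1, and of 7 developing red cell genes 0. Of 8 housekeeping genes Pgk1 (-0.45) and Sdha (-0.36) were lower and Ppia (0.35) higher. When each of the 10 arrays was left out, the call ended in 7 fits for Kdm5d, 5 for Hspd1, and 4 each for Ppia and Cdkn1c. The fewest calls in either direction were 1 for endothelial genes (without Largemyd replicate 4), 3 for skin and mammary genes (without the same), 1 for imprinted genes and 4 for stress genes (both without Largemyd replicate 2), and 3 for smooth muscle and pericyte genes (without Largemyd replicate 1).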
